A study of Mus musculus with 12 samples.

Results

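The aryl hydrocarbon receptor gene and its classical targets were followed here through 5 genes: *Ahr*, the receptor itself; *Ahrr*, its repressor; *Cyp1b1*, a cytochrome P450; *Tiparp*, an ADP-ribosyltransferase; and *Aldh3a1*, an aldehyde dehydrogenase. They were taken as the probe sets whose single gene symbol in the platform annotation is one of these names, which gave 10 of 45037 probe sets and 5 of 18193 genes. The cells were 3T3-L1 adipocytes, obtained by differentiating a mouse embryonic fibroblast line with 48 h of insulin (5 µg/ml), dexamethasone (1 µM) and IBMX (0.5 mM). At days 8 to 10 the cells were held for 12 h in medium with 0.2% albumin in place of serum. Berberine, an isoquinoline alkaloid of plants, was then given at 5 µM, and RNA was taken after 3, 6 or 12 h. DMSO, its solvent, served as control, and each of the 4 groups had 3 arrays. The labels do not give how long the DMSO cells were incubated, so all 3 berberine times share the same 3 DMSO arrays, and an effect of berberine and one of time in culture cannot be told apart. Nothing in the labels says that replicates were separate cultures, so the spread behind each p-value is that of these samples and may be technical.

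As background, the receptor is a basic helix-loop-helix PAS transcription factor that waits in the cytosol bound to HSP90. On binding a planar aromatic ligand it enters the nucleus, pairs with ARNT and binds xenobiotic response elements, whose core letters are GCGTG. Its targets include the CYP1 enzymes, which oxidise such ligands, and 2 brakes on the receptor: AHRR, which competes for ARNT, and TIPARP, which ADP-ribosylates the receptor. The receptor is known to hold back fat cell formation in 3T3-L1 cells, and its level is known to fall as they differentiate. Berberine has been described as an activator of the receptor in human and rat hepatoma lines.

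The start regions of 3 of the targets are shown, and each holds that core at least once. Of the 5 members these 3 matched the RefSeq table, and the start regions of *Ahr* and *Aldh3a1* were not searched. Each is the RefSeq window of 250 bases before to 50 after the annotated start on GRCm38.p6, written 5′ to 3′ on the gene's own strand, with GCGTG in capitals (CACGC where it lies on the opposite strand).
Cyp1b1 (chr17:79715012-79715311, minus strand): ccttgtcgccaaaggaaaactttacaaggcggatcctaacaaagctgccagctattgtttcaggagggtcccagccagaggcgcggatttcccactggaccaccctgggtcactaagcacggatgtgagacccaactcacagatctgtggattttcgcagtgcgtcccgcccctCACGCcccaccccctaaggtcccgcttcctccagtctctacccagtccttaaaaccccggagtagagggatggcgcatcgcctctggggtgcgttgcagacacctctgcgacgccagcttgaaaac
Tiparp (chr3:65528197-65528496, plus strand): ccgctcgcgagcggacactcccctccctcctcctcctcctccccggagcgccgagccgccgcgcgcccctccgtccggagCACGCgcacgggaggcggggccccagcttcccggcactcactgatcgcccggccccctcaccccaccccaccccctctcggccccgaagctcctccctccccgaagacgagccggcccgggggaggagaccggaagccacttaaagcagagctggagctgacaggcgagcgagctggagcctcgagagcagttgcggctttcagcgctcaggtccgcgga
Ahrr (chr13:74292282-74292581, minus strand): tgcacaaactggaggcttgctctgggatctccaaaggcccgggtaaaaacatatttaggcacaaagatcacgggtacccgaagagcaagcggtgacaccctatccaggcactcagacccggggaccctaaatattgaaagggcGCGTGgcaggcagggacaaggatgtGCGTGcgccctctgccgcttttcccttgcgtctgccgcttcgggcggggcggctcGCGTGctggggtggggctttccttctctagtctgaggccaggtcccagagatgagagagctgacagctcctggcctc
The *Ahrr* window held 3 matches to GCGTG, all on the gene's strand, and the one from -29 to -23 was also a match to the longer element TNGCGTG. The *Cyp1b1* and *Tiparp* windows held 1 match each, both on the opposite strand, from -76 to -72 in *Cyp1b1* and from -170 to -166 in *Tiparp*, and no match to TNGCGTG. Both strands were searched, and every TNGCGTG contains a GCGTG. The letters GCGTG are also one form of the element bound by hypoxia-inducible factors, which pair with ARNT as well. Of 32851 RefSeq start windows of this length, 32.4% held GCGTG at least once and 5.07% held TNGCGTG, so a match is a description of the letters and not a binding site.

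Values are log2 signals from which group means, SDs and differences were taken. A probe set counted as tested where at least 3 of 12 arrays reached 5.77, the median of all log2 signals. *Ahr*, *Cyp1b1*, *Tiparp* and *Aldh3a1* passed on all 12 arrays in their brightest probe set, so none of them entered through 1 group alone. *Ahrr* did not pass. Differences were tested with limma and adjusted over all 12136 genes tested, and calls were made where the adjusted p was under 0.05. Markers of adipocytes and other cell types were read first, but cannot settle the identity of the cells, since the series holds no undifferentiated cells. Of the adipocyte markers listed, *Plin1* and *Cfd* had no probe set with a single matching symbol. All 6 tested adipocyte markers (*Adipoq*, *Fabp4*, *Lpl*, *Cidec*, *Pparg* and *Retn*) had group means between 12.29 and 15.91. The fibroblast markers, of the kind the cells descend from, were also present, at 9.42 to 15.27. The macrophage gene *Ptprc* and the endothelial genes *Cdh5* and *Tek* stayed under the threshold on every array, and *Adgre1* and *Pecam1* reached it on 2 arrays and 1 array. The macrophage markers *Csf1r* (6.99 to 7.63, all 12 arrays) and *Cd68* (10 arrays) and the endothelial marker *Kdr* (4 arrays) were tested and were not called against DMSO at any time.

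**Figure D1:**
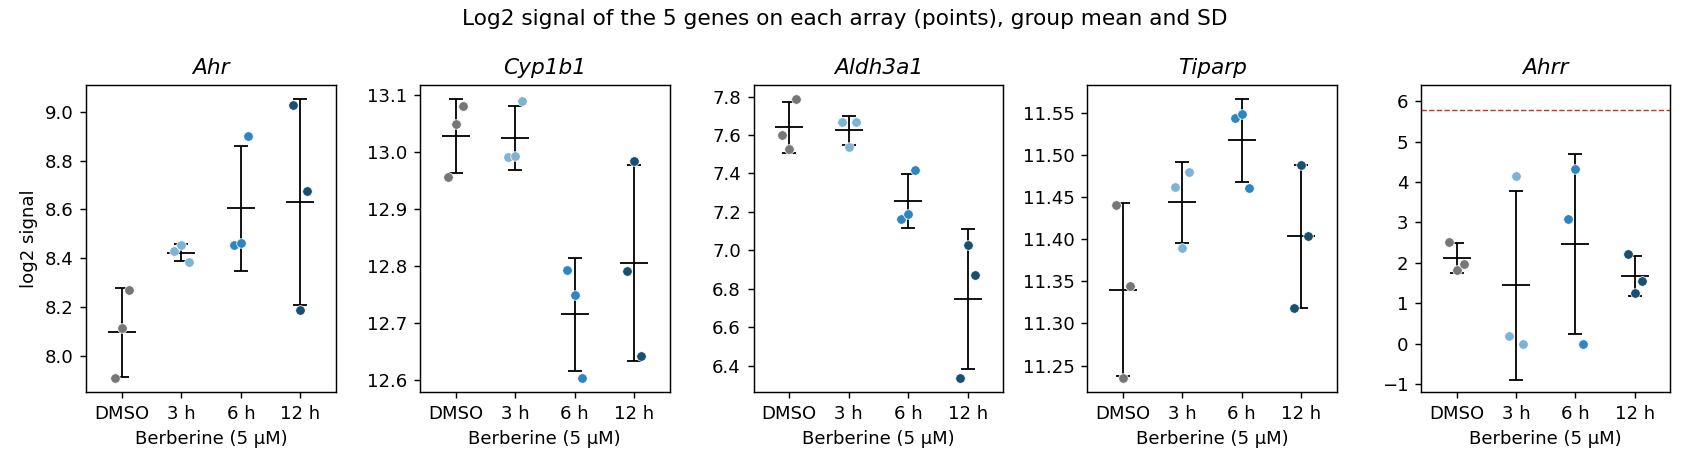
Log2 signal of each gene (vertical axes, scaled separately) on each array (points) with DMSO and after 3, 6 and 12 h of 5 µM berberine; horizontal bars are group means, vertical bars SDs (n = 3), and the dashed line in the last panel is the threshold of 5.77. *Aldh3a1* is lowest at 12 h, where its arrays lie between 6.33 and 7.03, *Cyp1b1* is lowest at 6 h, and *Ahrr* lies under the threshold on all 12 arrays.

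Across the time course the receptor gene and its targets did not move as one group. *Aldh3a1* fell 1.86-fold by 12 h and *Cyp1b1* fell 1.24-fold by 6 h. *Ahr* rose 1.45-fold by 12 h in its brighter probe set, while a dim one went the other way (-1.11, not called). The *Ahr* call ended when any one of 4 arrays was left out. *Tiparp* did not pass the test at any time. In these bulk samples, fewer cells of a type and less RNA per cell cannot be told apart. By limma's moderated F test over the 3 times, *Cyp1b1* (adjusted p = 0.00833) and *Aldh3a1* (adjusted p = 0.00803) differed among the groups, while *Ahr* (adjusted p = 0.0995) and *Tiparp* (adjusted p = 0.231) were not called. That is 2 of 4 tested members, against 25.1% of all genes tested.

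At 3 h, 0 of the 4 tested members were called by limma, against 1.9% of all genes called. At 6 h, 1 of 4 was called, *Cyp1b1*, which was lower, against 14.2% of all genes called in either direction and 6.98% called lower. An unadjusted limma p under 0.05 was found for 0 of 4 at 3 h and 3 of 4 at 6 h. No share of all genes was taken at that looser threshold. At 12 h, 3 of 4 were called, *Ahr* higher and *Cyp1b1* and *Aldh3a1* lower, against 28.2% of all genes called, 13.7% higher and 14.6% lower. The median log2 difference of the 4 was 0.050, -0.068 and -0.080 at 3, 6 and 12 h, beside 0.015, 0.013 and -0.0076 for all genes tested.

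**Figure D2:**
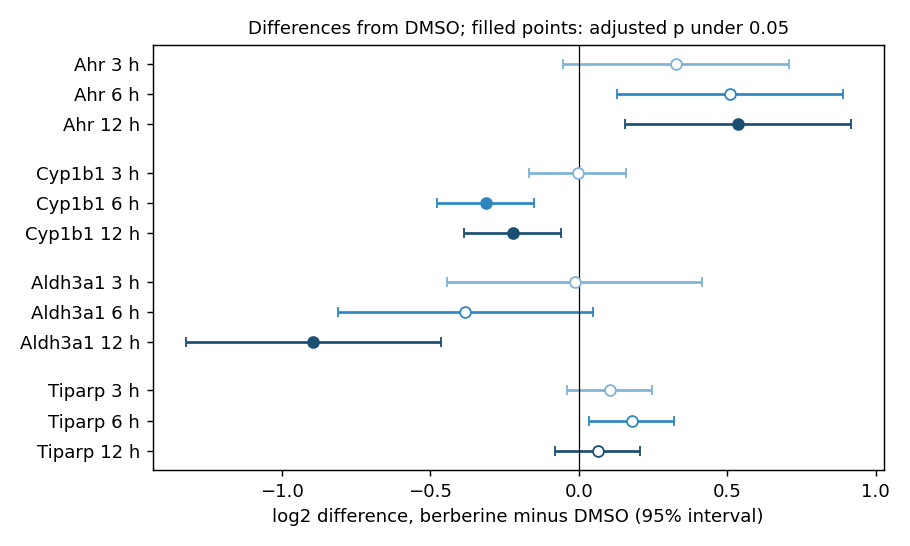
Log2 difference from DMSO (horizontal axis, berberine minus DMSO) of the 4 tested genes at 3, 6 and 12 h, with 95% intervals from limma that are not adjusted for the number of genes; filled points passed at an adjusted p under 0.05. The filled points are *Ahr* at 12 h (0.53), *Cyp1b1* at 6 h (-0.31) and 12 h (-0.22) and *Aldh3a1* at 12 h (-0.89), and the intervals of *Tiparp* lie between -0.08 and 0.32.

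*Ahr* encodes the ligand-binding receptor. Its log2 signals were 7.91, 8.11 and 8.27 with DMSO, 8.43, 8.46 and 8.38 at 3 h, 8.45, 8.46 and 8.90 at 6 h, and 9.03, 8.19 and 8.68 at 12 h. All arrays at 3 and 6 h lay above all DMSO arrays, while at 12 h replicate 2 lay inside the DMSO range. Groups set apart in this way, higher with berberine, held for 10.5% of all genes at 3 h and 15.7% at 6 h. The mean was 8.42 ± 0.04 at 3 h, a log2 difference of 0.33 from the DMSO mean of 8.10 ± 0.18 (SD, n = 3 each; 95% interval -0.05 to 0.71; limma adjusted p = 0.453). At 6 h the mean was 8.60 ± 0.26, a difference of 0.51 ± 0.18 SE (adjusted p = 0.0704). At 12 h *Ahr* rose to 8.63 ± 0.42, a difference of 0.53 ± 0.18 SE or 1.45-fold (adjusted p = 0.0343). *Ahr* was not called between any pair of berberine times, with adjusted p from 0.497 to 0.962 over the 3 pairs. The 12 h call rested on single arrays: leaving out DMSO replicate 1 gave an adjusted p of 0.137 and DMSO replicate 2 one of 0.0655, while 12 h replicate 1 gave 0.193 and replicate 3 gave 0.0849. It was 0.0852 without the intensity trend, 0.0504 without the filter on dim probe sets and 0.0526 with dim values raised to the threshold.

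A second *Ahr* probe set was dim, with 5 of 12 arrays at or above the threshold. Its 12 h arrays, 4.59, 3.72 and 3.27, lay under the threshold, as did 2 of the 3 DMSO arrays (4.83, 5.95 and 4.13). The difference at 12 h was -1.11, opposite in sign to that of the brighter probe set, and was not called over the 25053 kept probe sets (limma adjusted p = 0.283). When both probe sets were averaged, the *Ahr* difference at 12 h was -0.29 (adjusted p = 0.563).

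*Ahrr*, the receptor's repressor and itself a target, was measured by 1 probe set that lay under the threshold on all 12 arrays. Its log2 signals were 2.53, 1.83 and 1.98 with DMSO, 0.19, 4.14 and 0.00 at 3 h, 3.08, 4.31 and 0.00 at 6 h, and 2.21, 1.24 and 1.56 at 12 h. The spread within the 3 h and 6 h groups, with SDs of 2.34 and 2.22, was wider than any distance between group means. No fold is given, since both sides of every comparison lay under the threshold.

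*Cyp1b1* encodes a P450 that oxidises polycyclic aromatic hydrocarbons and oestradiol, and is the CYP1 enzyme known from mesenchymal cells. Its log2 signals were 12.96, 13.05 and 13.08 with DMSO, 12.99, 12.99 and 13.09 at 3 h, 12.79, 12.75 and 12.60 at 6 h, and 12.79, 12.98 and 12.64 at 12 h. The 3 h arrays fell within or just above the DMSO range, all 6 h arrays lay below it, as for 14.3% of all genes, and at 12 h replicate 2 lay inside it. At 3 h the difference from DMSO was -0.0041, with a 95% interval of -0.17 to 0.16 (limma adjusted p = 0.991). At 6 h *Cyp1b1* fell to 12.71 ± 0.10, against 13.03 ± 0.06 with DMSO (SD, n = 3 each), a difference of -0.31 ± 0.08 SE or 1.24-fold lower (adjusted p = 0.0112). It was also lower at 6 h than at 3 h (-0.31 ± 0.08 SE, adjusted p = 0.0416, beside 2.34% of all genes called between these times and 1.15% called lower). All 6 h arrays lay below all 3 h arrays, as for 11.1% of all genes. At 12 h the difference from DMSO was -0.22 ± 0.08 SE or 1.17-fold lower (adjusted p = 0.0385), and 12 h and 6 h did not differ beyond their spread (0.09, 95% interval -0.07 to 0.25). Both calls against DMSO ended without the intensity trend (adjusted p = 0.0614 at 6 h and 0.11 at 12 h). The 6 h call also ended without 6 h replicate 3 (0.0599). The 12 h call ended when DMSO replicate 2 (0.088), DMSO replicate 3 (0.108), 12 h replicate 1 (0.095) or 12 h replicate 3 (0.197) was left out, and without the filter on dim probe sets (0.0563). The 6 h to 3 h call ended without any one of 7 arrays, with adjusted p up to 0.183.

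A second *Cyp1b1* probe set moved the same way by more. Its log2 signals were 10.32, 10.53 and 10.16 with DMSO, 10.06, 10.24 and 10.17 at 3 h, 9.95, 9.61 and 9.74 at 6 h, and 9.89, 9.94 and 9.90 at 12 h. The arrays at 6 h and at 12 h all lay below the DMSO arrays, as for 13% of kept probe sets at 6 h and 17.9% at 12 h. Over all kept probe sets, of which 10.5% were called at 6 h (5.18% lower) and 23.3% at 12 h (11.8% lower), its difference was -0.57 ± 0.10 SE at 6 h (limma adjusted p = 0.00193) and -0.43 ± 0.10 SE at 12 h (adjusted p = 0.00585). These calls held when each array was left out in turn, with adjusted p up to 0.0134 at 6 h and 0.0345 at 12 h. Another probe set reached the threshold on 1 of 12 arrays and was not tested.

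*Cyp1b1* is expressed in fibroblasts, so the fibroblast markers are given beside it. At 6 h 2 of the 6 rose (*Col3a1* and *Vim*) and 2 fell (*Pdgfra* and *Col1a1*), and at 12 h 1 rose (*Vim*) and the same pair fell. Of all genes tested, 14.2% were called at 6 h (6.98% lower) and 28.2% at 12 h (13.7% higher and 14.6% lower). *Pdgfra*, a growth factor receptor of adipocyte precursors, had log2 differences of -0.46 (limma adjusted p = 0.000323) at 6 h and -0.28 (adjusted p = 0.00528) at 12 h. *Col1a1*, a collagen, had differences of -0.28 (adjusted p = 0.0261) at 6 h and -0.35 (adjusted p = 0.00344) at 12 h. The summed linear signal of the 6 markers was 82910 to 88460 at 6 h and 80500 to 87630 at 12 h, against 69750 to 82790 with DMSO. Among the adipocyte markers at 6 h, 4 of 6 rose (*Adipoq*, *Fabp4*, *Lpl* and *Pparg*) and *Cidec* fell, beside the same 14.2% of all genes called. The summed signal of the adipocyte markers was 191400 to 214500, against 154700 to 199900 with DMSO. The part of either cell type in the *Cyp1b1* result was not tested. The spike control *bioB*, added to every sample, read 10.38 to 10.56 at 6 h and 10.31 to 10.45 at 12 h, against 10.10 to 10.31 with DMSO, and its part was not tested.

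*Aldh3a1* encodes a dehydrogenase of aromatic and medium-chain aldehydes, known as a dioxin-inducible gene of hepatoma cells and as a corneal protein. This gene had a single probe set here. Its log2 signals were 7.60, 7.53 and 7.79 with DMSO, 7.67, 7.54 and 7.67 at 3 h, 7.16, 7.19 and 7.42 at 6 h, and 6.33, 7.03 and 6.87 at 12 h. The 3 h arrays lay inside the DMSO range, the 6 h arrays all lay below it, as for 14.3% of all genes, and the 12 h arrays all lay below it, as for 20.3%. At 3 h the difference was -0.01, with a 95% interval of -0.44 to 0.42. At 6 h it was -0.38 (95% interval -0.81 to 0.05; limma adjusted p = 0.248). At 12 h *Aldh3a1* fell to 6.74 ± 0.36, against 7.64 ± 0.13 with DMSO (SD, n = 3 each), a difference of -0.89 ± 0.20 SE or 1.86-fold lower (adjusted p = 0.00302). Of all genes tested, 3.76% had a lower difference at 12 h than this. *Aldh3a1* was also 1.84-fold lower at 12 h than at 3 h (-0.88 ± 0.20 SE, adjusted p = 0.00562, beside 17.7% of all genes called between these times and 9.71% called lower). All 12 h arrays lay below all 3 h arrays, as for 18.6% of all genes. Between 12 h and 6 h its difference was -0.51 and was not called (adjusted p = 0.169), although the arrays did not overlap, as for 12.7% of all genes lower at 12 h. For that pair of times limma called 0 of 4 members, against 5.69% of all genes called. At an unadjusted limma p under 0.05 the count was 1 of 4, and no share of all genes was taken there. The call against DMSO at 12 h held when each of the 12 arrays was left out in turn, with differences from -1.04 to -0.69 and adjusted p from 0.00235 to 0.0174. Among the adipocyte markers at 12 h, 1 of 6 rose and 2 fell, beside 13.7% of all genes called higher and 14.6% called lower. Of those that fell, *Cidec*, a lipid droplet protein gene, fell by 1.44 on the log2 scale (limma adjusted p = 1.62e-10). The summed linear signal of the 6 markers was 168800 to 187300 at 12 h, against 154700 to 199900 with DMSO. The part of these markers in the *Aldh3a1* result was not tested.

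*Tiparp*, which encodes the ADP-ribosyltransferase PARP7, was bright and nearly flat. Its log2 signals were 11.44, 11.23 and 11.34 with DMSO, 11.46, 11.39 and 11.48 at 3 h, 11.54, 11.55 and 11.46 at 6 h, and 11.32, 11.49 and 11.40 at 12 h. Only the 6 h arrays stood wholly above the DMSO arrays, as for 15.7% of all genes. The differences from DMSO were 0.10 at 3 h (95% interval -0.04 to 0.25), 0.18 at 6 h (0.03 to 0.32) and 0.06 at 12 h (-0.08 to 0.21), with limma adjusted p of 0.547, 0.0931 and 0.553. This probe set ends in _s_at, a class that can bind transcripts of more than 1 gene. A second probe set, with log2 signals of 11.26 to 11.52 over the 12 arrays, had differences of -0.039, 0.014 and -0.053 at 3, 6 and 12 h. The remaining one, at 9.25 to 9.76, had differences of 0.22, -0.026 and 0.0047. Neither was called by limma over the kept probe sets, of which 0.998% were called at 3 h, with adjusted p of 0.484 or more.

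Of 24 further genes of the pathway and of the ALDH3 family, 18 had a probe set with a single matching symbol and 14 were tested. At 3 h and at 6 h 0 of 14 were called by limma, against 1.9% and 14.2% of all genes called. At each of these times 2 of 14 had an unadjusted p under 0.05, for which no share of all genes was taken. At 12 h 1 rose and 2 fell, against 13.7% of all genes called higher and 14.6% called lower. The median log2 difference of the 14 was 0.10, 0.021 and -0.065 at 3, 6 and 12 h. *Arnt*, the partner with which the receptor binds DNA, had log2 signals of 10.21, 10.28 and 10.20 at 12 h, against 9.83, 10.08 and 9.90 with DMSO, and rose 1.22-fold (limma adjusted p = 0.0428). The 12 h arrays all lay above the DMSO arrays, as for 19.1% of all genes tested. The *Arnt* call ended when any one of 6 arrays was left out, with adjusted p up to 0.161, and with the replicate number as a block (0.0535). Over all kept probe sets, of which 23.3% were called at 12 h, this one had a limma adjusted p of 0.0552. Its other probe sets had 12 h differences of 0.31 (adjusted p = 0.0416), 1.41 (0.00656), 0.22 (0.67) and 1.09 (0.12). Those of 1.41 and 1.09 were dim, with mean signals of 6.36 and 5.55. *Arnt* was 1.49-fold higher at 12 h than at 3 h (0.57 ± 0.10 SE, adjusted p = 0.000759, or 0.166 with the mean of its probe sets). At 3 h the difference of *Arnt* from DMSO was -0.28 in this probe set, but 0.17, 0.53, 0.29 and 0.98 in the others. *Nrip1*, a corepressor of nuclear receptors in fat cells, had signals of 12.46, 12.48 and 12.61 at 12 h, against 12.83, 12.75 and 12.97 with DMSO, and fell 1.26-fold (adjusted p = 0.00225, or 0.415 with the mean of its probe sets). Between berberine times, 0 of the 14 were called for 6 h against 3 h, beside 2.34% of all genes called. For 3 of the 14 the unadjusted limma p was under 0.05, again with no share of all genes taken. *Nrip1* alone was called for 12 h against 6 h (-0.33, adjusted p = 0.012), beside 5.69% of all genes called. *Arnt* and *Nrip1* (-0.55, adjusted p = 4.58e-05) were called for 12 h against 3 h, beside 17.7% of all genes. Both *Nrip1* calls ended with the mean of its probe sets (adjusted p of 0.525 and 0.526), and the first also without 6 h replicate 2 (0.0745), without 12 h replicate 1 (0.0552) and without the intensity trend (0.08). Over all kept probe sets, other bright ones of *Nrip1* also fell from 3 h to 12 h (-0.43, limma adjusted p = 0.0115, and -0.33, adjusted p = 0.026). Its dimmer ones, which the mean brings in, had differences of -0.57, 0.62 and 0.38 and were not called. The coactivator genes *Ncoa1*, *Ncoa2* and *Ncoa3* had differences between -0.10 and 0.24 over the 3 times and were not called.

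*Hsp90aa1*, the inducible form of the chaperone that holds the receptor, had differences of -0.13, -0.04 and -0.12 at 3, 6 and 12 h and was not called. Its other kept probe sets went the other way, with 0.19, 0.06 and 0.16, and with 0.21, 0.27 and 0.26. They were not called over the kept probe sets either (limma adjusted p of 0.0918 or more). Among the drug-metabolising targets, *Nqo1*, a quinone reductase, had differences of -0.07, -0.27 and -0.05 and was not called (limma adjusted p of 0.855, 0.167 and 0.805). *Cyp1a1*, the most used marker of receptor activity, lay under the threshold on all 12 arrays, between 1.61 and 5.58, and so did *Cyp1a2*, between 0.99 and 5.22. *Gsta2*, a glutathione transferase, reached the threshold on 1 array. The enzymes that turn tryptophan into receptor ligands were dim. *Tdo2* had its largest difference at 6 h, 1.19 (adjusted p = 0.181), and *Il4i1* at 6 h, 1.35 (adjusted p = 0.248), with group means near or under the threshold (4.79 to 5.97 for *Tdo2* and 4.30 to 5.65 for *Il4i1*). *Ido1* was not called at any time, and *Ido2* reached the threshold on 2 arrays.

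Of the other aldehyde dehydrogenases of the ALDH3 family, 1 of 3 was called at 12 h, beside 28.2% of all genes called and 14.6% called lower. *Aldh3b2* had log2 signals of 7.20, 6.99 and 7.57 at 12 h, against 8.31, 7.68 and 8.12 with DMSO, and fell 1.72-fold (-0.78 ± 0.21 SE, limma adjusted p = 0.0104). Its 12 h arrays all lay below the DMSO arrays, as for 20.3% of all genes, but its adjusted p was 0.0639 without DMSO replicate 1 and 0.0514 without 12 h replicate 2. *Aldh3a2*, the fatty aldehyde dehydrogenase, and *Aldh3b1* had differences of -0.10 and -0.09 at 12 h and were not called.

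**Figure D3:**
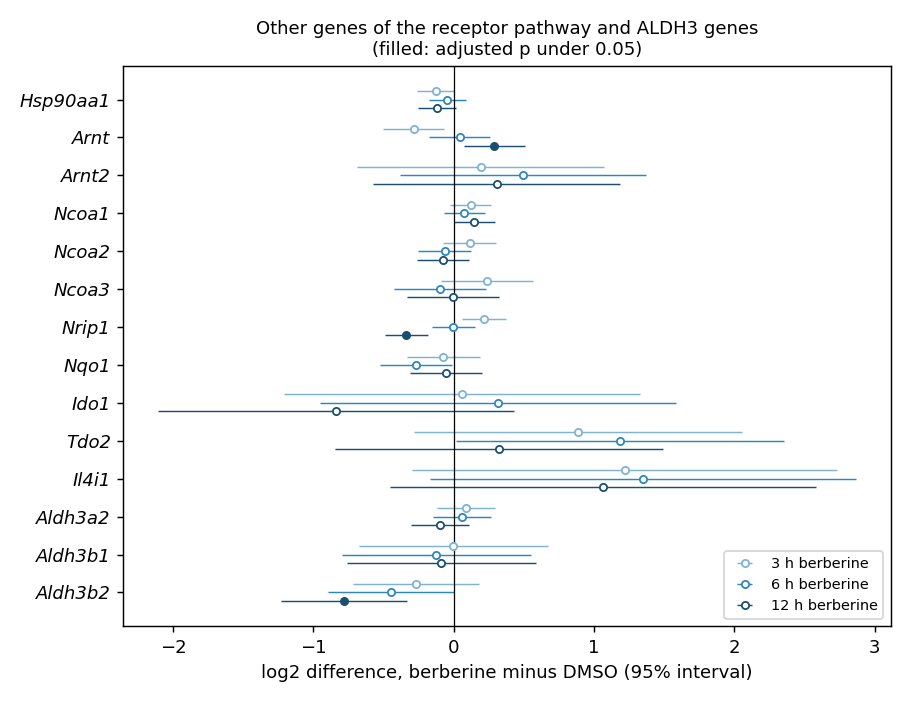
Log2 difference from DMSO (horizontal axis, berberine minus DMSO) of the 14 further genes tested, at 3, 6 and 12 h from top to bottom within each gene, with 95% intervals from limma that are not adjusted for the number of genes; filled points passed at an adjusted p under 0.05. The filled points are *Arnt* (0.29), *Nrip1* (-0.34) and *Aldh3b2* (-0.78), all at 12 h, and the widest intervals belong to the dim genes *Ido1*, *Tdo2*, *Il4i1* and *Arnt2*.

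The genes whose log2 signals followed each member most closely over the 12 arrays were taken by Pearson's r among 11583 other genes tested. These values share the arrays and their scaling, and describe only likeness of pattern. For *Aldh3a1* they were *Ankrd13c* (r = 0.971), *Nhsl2* (0.961) and *Akap2* (0.945). The group means of *Nhsl2* were 7.14 with DMSO and 7.32, 6.70 and 5.90 at 3, 6 and 12 h, level at first and lowest at 12 h like *Aldh3a1*. For *Cyp1b1* they were *Foxo3* (0.895), a transcription factor restrained by insulin signalling, *Relch* (0.89) and *Adck2* (0.887). *Foxo3* averaged 10.92 with DMSO and 11.09, 10.59 and 10.57 at 3, 6 and 12 h. For *Ahr* they were *Zfp691* (0.878), *Tex10* (0.865) and *Lacc1* (0.865). *Tex10* averaged 11.68 with DMSO and 11.84, 11.99 and 12.01 at 3, 6 and 12 h. For *Tiparp* they were *Rab5b* (0.956), *Dusp10* (0.861) and *Slc35b3* (0.856). *Rab5b*, an endosomal GTPase gene, averaged 6.18 with DMSO and 6.44, 6.70 and 6.26 at 3, 6 and 12 h, highest at 6 h as *Tiparp* was.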

How the data were processed

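Expression was measured on 12 single-colour Affymetrix 3' arrays, 3 per group, grouped and numbered as the labels give them. The authors deposited log2 signals of 45101 probe sets, 64 of which are controls. Per the submitters' processing notes these come from MAS5, whose version is not given in the sources used here. On the linear scale all arrays share a 2% trimmed mean of 500.004. Detection calls were not used here.

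Probe sets stayed in where 3 or more of 12 arrays reached the median log2 signal of all non-control probe sets, 5.77, which left 25053. Symbols came from the platform annotation, set against RefSeq's gene table through Entrez identifiers (0 changed). The brightest remaining probe set on average stood for its gene (one ending in _x_at only where no other existed), which gave 12136 genes. One linear model with 4 group means was fitted to all 12 arrays in limma 3.58.1 (R 4.3.3), leaving 8 residual degrees of freedom, and moderated by eBayes with the trend on intensity. Tests were two-sided and p-values adjusted by the Benjamini-Hochberg method over all genes, or over all kept probe sets where a single probe set is described. A fold is 2 raised to the log2 difference, and SEs are those of the moderated fit. The fit was tested on simulated data. The number of arrays limits the precision. Python 3.11.15 with matplotlib 3.10.9 made the figures.

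The members, the further pathway genes and the markers were chosen with earlier results of these data known. The rule for named genes took all 5 members, allowed any tested gene of the pathway lists and took, for each tested member, the 3 genes of highest correlation with it, predicted and RIKEN genes left out. Alternatives were quantile normalization, no intensity trend, no filter, a filter of 6 arrays, values under the threshold raised to it, averaging the probe sets of a gene, the replicate number as a block and leaving out each array in turn. The same alternatives for *Arnt*, *Nrip1* and *Aldh3b2*, and some of them for the second *Cyp1b1* probe set, were chosen after seeing the data.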

Additional observations from a re-analysis of the deposited data

Results flagged for a closer look

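The change of 2 members differed between berberine times by limma's direct test of one time against the other. *Cyp1b1* had a log2 difference of -0.31 at 6 h against 3 h (adjusted p = 0.0416), with 12.79, 12.75 and 12.60 at 6 h, against 12.99, 12.99 and 13.09 at 3 h, lower in 3 of 3 arrays. Of all genes, 2.34% were called between these times, and 11.1% had all 6 h arrays below all 3 h arrays. The *Cyp1b1* call ended without any one of 7 arrays. Over all kept probe sets neither tested *Cyp1b1* probe set was called for this pair (limma adjusted p of 0.0637 and 0.0745). *Aldh3a1* had a difference of -0.88 at 12 h against 3 h (adjusted p = 0.00562), with 6.33, 7.03 and 6.87 at 12 h, against 7.67, 7.54 and 7.67 at 3 h, lower in 3 of 3 arrays. Between 12 h and 3 h, 17.7% of all genes were called, and 18.6% had all 12 h arrays below all 3 h arrays. No test for outlying arrays was run within groups of 3, beyond leaving out each array in turn.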

How the results depend on the processing

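The 12 h fall of *Aldh3a1* kept its direction and its call in every alternative run. Its single probe set reached the threshold on all 12 arrays. Changing the filter, raising dim values and averaging probe sets could therefore not alter its difference. Without the intensity trend the count of members called was 0 at 6 h, 1 at 12 h, 0 for 6 h against 3 h and 1 by the F test (1, 3, 1 and 2 as reported), and without a filter it was 1 at 12 h and 0 for 6 h against 3 h, where raising dim values also gave 0. For 12 h against 3 h it was 2 with quantile normalization and with the mean of probe sets, where 1 is reported. Leaving out each array in turn gave 0 to 2 members called at 6 h, 1 to 3 at 12 h, 0 to 1 for 6 h against 3 h, 1 to 2 for 12 h against 3 h and 0 in each run at 3 h and for 12 h against 6 h.

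Over all genes, the count called at 3 h was 231, or 93 without the trend and 114 with the mean of probe sets; at 6 h it was 1726, or 1099 with the mean of probe sets. Between 6 h and 3 h it was 284, or 60 without the trend and 146 with the mean of probe sets, and between 12 h and 6 h 690, or 296 without the trend. Leaving out each array in turn gave 117 to 266 at 3 h, 1116 to 1771 at 6 h, 85 to 323 between 6 h and 3 h and 376 to 754 between 12 h and 6 h.

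Signs that turned belonged to uncalled values or to *Ahr*. With the mean of probe sets, which brings in its dim probe set, the *Ahr* difference was -0.29 at 12 h, -0.93 at 12 h against 6 h and -0.76 at 12 h against 3 h, and that of *Tiparp* was -0.039 at 6 h against 3 h. Quantile normalization gave *Cyp1b1* 0.020 at 3 h. Leaving out single arrays moved *Cyp1b1* at 3 h from -0.040 to 0.022, *Aldh3a1* at 3 h from -0.070 to 0.060, *Ahr* at 12 h against 6 h from -0.17 to 0.25 and *Tiparp* at 12 h against 3 h from -0.083 to 0.0018.

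With the replicate number as a block, 0, 1 and 3 members were called at 3, 6 and 12 h, as without it, and 221, 1713 and 3398 genes. Same-numbered arrays did not deviate together (correlations of -0.0368 to 0.0301 over 18 pairs, 4 of 12 arrays closest to one of their own number), so the numbers were not used as a pairing. Whether arrays of 1 number shared a culture or a batch cannot be told from these correlations. Of the calls named, the block ended that of *Arnt* at 12 h only. Signals under the threshold, as for *Ahrr* and *Cyp1a1*, allow no statement on their change.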
